A study of Mus musculus with 15 samples.

Results

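The mouse liver libraries were searched for the genes that encode collagens, chosen by symbol (Col, a number, a and a number). The table of 55849 gene rows holds 44 of them, and 24 averaged 0.1 TPM or more across the 15 libraries. TPM is the share of a library's transcripts that a gene takes, corrected for its length, so levels of different genes can be set side by side. Of the 24, 16 had a mean of at least 1 TPM and were tested, and 8 are described by their values. The other 20 had means under 0.1 TPM and no value above 0.68 TPM in any library, and 3 of these, Col2a1, Col9a1 and Col19a1, were listed at 0 throughout. Just inside the limit lay Col4a4 with a mean of 0.103 TPM, and just outside it Col8a2 with 0.094 TPM.

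The libraries form 3 groups of 5, which are called treated, aged and young here, and n counts libraries throughout. Treated livers are labelled KSL0608-Se with irradiation, and KSL0608-Se is known here by its code name alone. The other groups are labelled aged control and young control. The labels state no strain, sex, age in numbers, dose or light exposure for any group, no age for the treated mice, and no mock treatment of the controls. They do not say that each library is a separate animal, so the tests describe the spread between libraries, part of which may be technical. The title of the series names a photoactivatable killing of senescent cells, and the comparisons ask how aged livers differ from young ones and treated livers from both. The label liver was checked with the hepatocyte gene Alb, which encodes serum albumin and lay between 43300 and 90426 TPM in all libraries. Between 17847 and 20743 genes had a value above 0, and TPM holds no record of sequencing depth, which is therefore unknown.

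Collagens are secreted proteins built of chains that wind around each other into rigid rods. The fibrillar collagens (types I, III, V, XI and XXVII among the genes described here) assemble into fibres of the matrix. Some of them, with collagen I as the main fibre, make up the scar of fibrotic liver. There, activated stellate cells and portal fibroblasts produce them. Collagen IV forms the sheet-like network of basement membranes, and collagens XV and XVIII are proteoglycans that sit at their surface and carry a cleavable end fragment with anti-angiogenic activity. In healthy liver the sinusoids have little basement membrane, and collagen XVIII is made by hepatocytes as well as by vessel and bile duct cells.

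Promoter sequence is shown for 2 members, Col15a1, the collagen gene that passed the test between groups, and Col18a1, the most abundant collagen gene. Both are taken from RefSeq on GRCm38.p6, an older build than the GRCm39 the authors used. Capitals mark 3 motifs that were searched for on both strands. The first is the CCAAT box, which binds the factor NF-Y. The second is the GC box GGGCGG, which binds factors of the Sp family. The third is the TATA box, spelled TATAAA. The matches do not overlap each other in these windows.
Col15a1, chr4:47207762-47208011, plus strand: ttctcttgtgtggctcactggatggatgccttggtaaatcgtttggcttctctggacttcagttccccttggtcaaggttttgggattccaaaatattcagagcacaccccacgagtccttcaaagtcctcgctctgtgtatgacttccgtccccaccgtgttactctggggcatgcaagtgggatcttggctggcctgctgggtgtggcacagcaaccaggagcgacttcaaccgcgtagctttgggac
Col18a1, chr10:77166549-77166780, minus strand: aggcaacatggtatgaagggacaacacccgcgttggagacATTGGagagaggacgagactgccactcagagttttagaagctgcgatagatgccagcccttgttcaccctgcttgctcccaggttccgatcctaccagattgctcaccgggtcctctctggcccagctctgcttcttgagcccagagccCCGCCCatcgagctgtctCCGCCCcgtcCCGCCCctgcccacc
The Col15a1 window holds none of the motifs, and the printed Col18a1 window holds 1 CCAAT box and 3 GC boxes, each on the strand opposite to the one printed. RefSeq gives Col18a1 a further start downstream of this one, and the window before it, which is not printed, holds none of the motifs. Among 32851 windows of 250 bases upstream of RefSeq gene starts, 33.8% hold a CCAAT box, 32.7% a GC box and 12.4% a TATA box on either strand. Among the 21 such windows found for 19 of the 24 collagen genes, 7 hold a CCAAT box, 12 a GC box and 3 a TATA box. The Col15a1 window lies before the start that RefSeq's promoter table uses, and the first start of the gene in the GENCODE M21 annotation lies 149 bases farther on. From the Col18a1 window 18 bases that overlap an annotated exon were left out, which leaves 232 bases.

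The collagens together took between 0.0172% and 0.0555% of a library's TPM. Their summed level was 280 ± 47.4 TPM in treated, 328 ± 47.3 TPM in aged and 377 ± 144 TPM in young livers (SD, n = 5 each). Col18a1 was the most abundant collagen gene in each of the 15 libraries and made up 62.7% to 86.0% of this sum. After it came Col14a1 with a mean of 15.8 TPM over all libraries, Col15a1 with 10.1, Col3a1 with 9.74 and Col4a1 with 7.86. The other 11 tested genes had means between 1.60 and 4.29 TPM. By class, 8 of the 24 genes are fibrillar, 7 belong to basement membranes and 9 to other types.

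**Figure D1:**
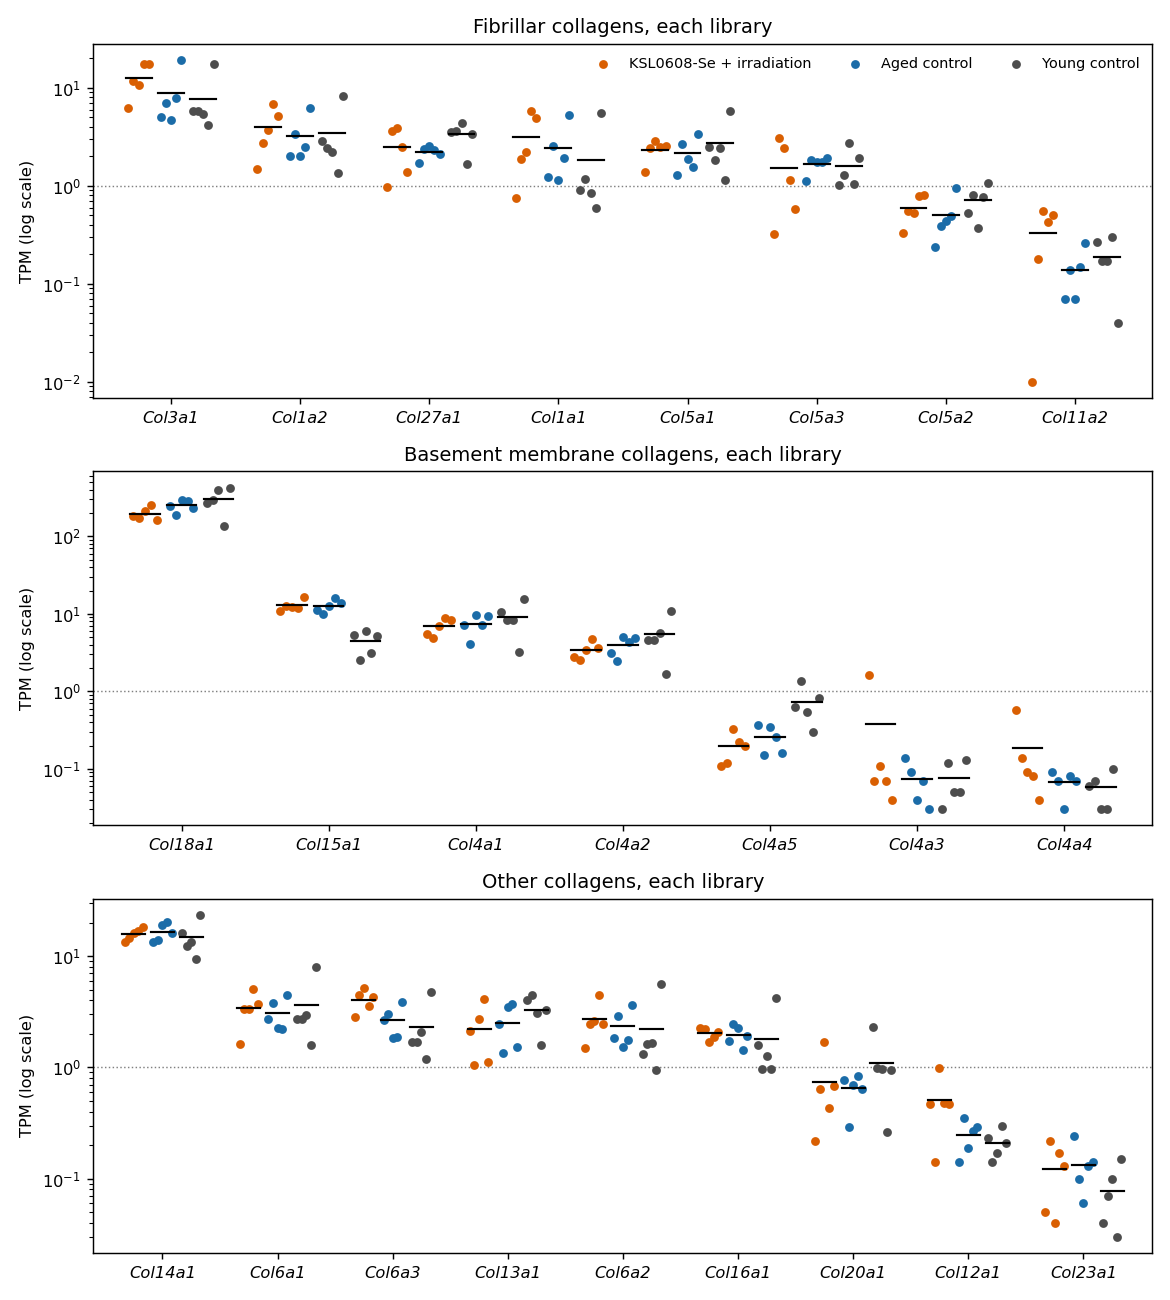
Level of each of the 24 collagen genes in each library, in TPM on a log scale, by class; points are libraries, horizontal lines are group means, and the dotted line marks 1 TPM, the mean from which genes were tested. In the middle panel the 5 young libraries of Col15a1 lie between 2.51 and 5.95 TPM, below all treated and aged libraries, while the groups of the other tested genes overlap.

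The groups overlapped for all 6 tested fibrillar genes, and none of them passed the test in any comparison. Col3a1, which encodes collagen III of reticular fibres, was the highest of them. It had 6.25, 11.62, 10.70, 17.54 and 17.51 TPM in treated libraries 1 to 5, 5.06, 7.04, 4.70, 7.85 and 19.20 TPM in aged libraries, and 5.86, 5.84, 5.40, 4.18 and 17.31 TPM in young libraries. Aged 5 and young 5 stood at the level of the highest treated libraries, and the other aged and young libraries lay at 7.85 TPM or less. The mean of Col3a1 was 12.7 ± 4.83 TPM in treated, 8.77 ± 5.98 TPM in aged and 7.72 ± 5.41 TPM in young livers (SD, n = 5 each). The log2 differences were 0.58 for treated minus aged (95% interval -0.23 to 1.39) and 0.74 for treated minus young (-0.07 to 1.55), with limma adjusted p = 0.925 and 0.33. For aged minus young the difference was 0.16 (-0.65 to 0.97).

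Col1a1 and Col1a2 encode the chains of collagen I, the main fibre of scar. Col1a1 had 0.76, 1.90, 2.19, 5.86 and 4.95 TPM in treated libraries 1 to 5, 1.24, 2.56, 1.14, 1.92 and 5.25 TPM in aged libraries, and 0.91, 1.18, 0.84, 0.60 and 5.56 TPM in young libraries. Col1a2 had 1.48, 2.76, 3.68, 6.92 and 5.15 TPM in treated libraries, 2.00, 3.38, 2.00, 2.51 and 6.19 TPM in aged libraries, and 2.85, 2.41, 2.21, 1.34 and 8.32 TPM in young libraries. Both genes were highest in the same libraries, treated 4 and 5, aged 5 and young 5, and the groups overlapped. For Col1a1 the log2 difference was 0.39 for aged minus young (95% interval -0.53 to 1.31), 0.22 for treated minus aged (-0.70 to 1.14) and 0.61 for treated minus young (-0.31 to 1.53). For Col1a2 it was 0.02 (-0.76 to 0.80), 0.22 (-0.56 to 1.00) and 0.24 (-0.54 to 1.02) in the same order. The upper ends of these intervals run from 0.80 to 1.53 and the lower ends from -0.76 to -0.31. Differences within each interval are not excluded by these libraries. The smallest limma adjusted p of either gene was 0.493.

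The minor fibrillar genes were lower. Col27a1, which encodes a fibrillar collagen best known from cartilage, had 0.98, 3.62, 3.85, 2.48 and 1.38 TPM in treated libraries 1 to 5, 1.73, 2.39, 2.57, 2.33 and 2.12 TPM in aged libraries, and 3.53, 3.67, 4.41, 1.69 and 3.41 TPM in young libraries. All but 1 of the young libraries stood above the 5 aged ones, and young 4 below them. The log2 difference was -0.40 for aged minus young (95% interval -0.92 to 0.12, limma adjusted p = 0.789) and -0.38 for treated minus young (-0.90 to 0.14, adjusted p = 0.453). Col5a1 and Col5a3 encode chains of collagen V, which regulates the width of collagen I fibres. Col5a1 averaged 2.35 ± 0.568 TPM in treated, 2.15 ± 0.86 TPM in aged and 2.74 ± 1.79 TPM in young livers, and Col5a3 1.52 ± 1.21, 1.68 ± 0.311 and 1.60 ± 0.73 TPM in the same groups (SD, n = 5 each). In treated livers Col5a3 ran from 0.32 TPM in treated 1 to 3.10 TPM in treated 2. Col5a1 overlaps 2810430I11Rik and Gm13372 on the opposite strand, and neither passed 0.28 TPM in any library. Col5a2, a further chain of collagen V, lay between 0.24 and 1.08 TPM over all libraries. Col11a2, a chain of the cartilage collagen XI, lay between 0.01 and 0.55 TPM in treated, 0.07 and 0.26 TPM in aged and 0.04 and 0.30 TPM in young libraries.

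The basement membrane class held the collagen gene that differed between groups. Col15a1 (ENSMUSG00000028339) encodes collagen XV, which anchors the basement membranes of vessels and muscle to the matrix around them and, in liver, is known from portal fibroblasts. It had 11, 12.69, 12.40, 11.93 and 16.37 TPM in treated libraries 1 to 5, 11.38, 9.96, 12.71, 16.12 and 13.98 TPM in aged libraries, and 5.36, 2.51, 5.95, 3.16 and 5.26 TPM in young libraries. Every treated and every aged library stood above every young library, while treated and aged libraries covered the same range. In aged livers Col15a1 rose to 12.8 ± 2.37 TPM, against 4.45 ± 1.51 TPM in young livers (SD, n = 5 each). The log2 difference of 1.38 (SE 0.20, 95% interval 0.95 to 1.80) is a fold of 2.60 on the log2(TPM + 1) scale, which understates changes of low genes, and its limma adjusted p was 0.00129. In treated livers it averaged 12.9 ± 2.05 TPM, a log2 difference of 1.39 from young livers (SE 0.20, 95% interval 0.96 to 1.81, adjusted p = 0.000906). Between treated and aged livers the log2 difference was 0.01 (SE 0.20, 95% interval -0.41 to 0.43, adjusted p = 0.999), so a difference beyond 0.43 in either direction lies outside the interval. In bulk liver, more cells that express a gene and more RNA of it per cell cannot be told apart. The comparisons of aged and of treated livers with young ones share the young libraries, so they are not separate evidence.

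**Figure D2:**
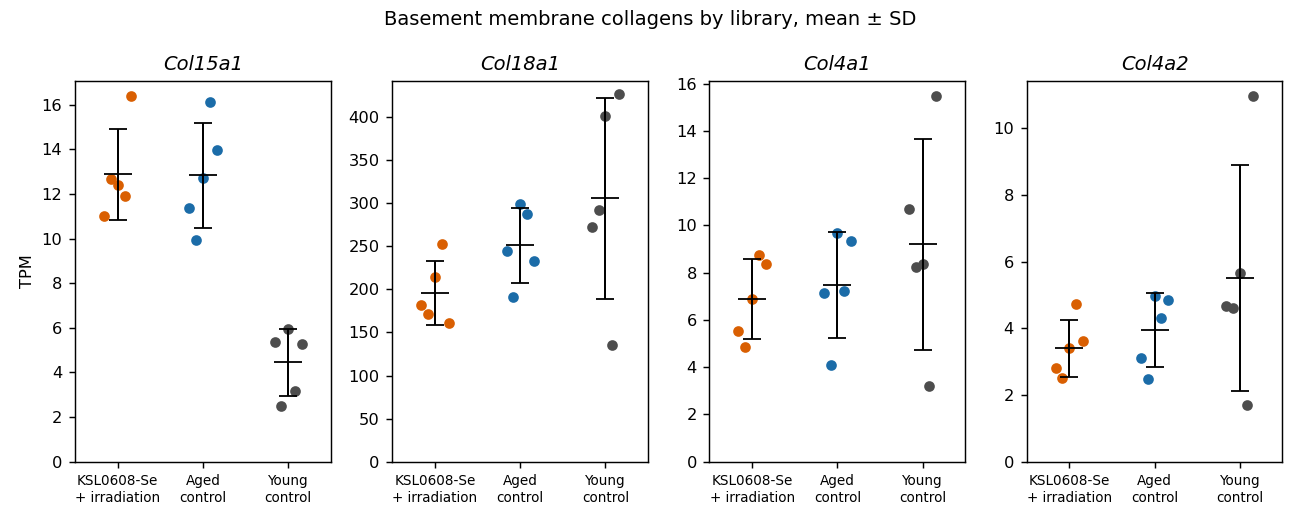
Level in TPM of 4 basement membrane collagen genes in each library, on linear axes that start at 0; points are libraries, and bars are the mean and SD of 5 libraries per group. Col15a1 was at 9.96 TPM or more in all treated and aged libraries and at 5.95 TPM or less in all young ones, whereas Col18a1, Col4a1 and Col4a2 overlapped between groups and were most spread in young livers.

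Col15a1 was the single collagen gene called of 16 tested for aged against young, where 1.08% of the 12168 genes tested were called, and 0.929% of the genes tested were called higher in aged livers. For treated against young it was again the single gene of 16, where 2.91% of all genes were called and 2.18% were called higher in treated livers. That share depends on single libraries, since 1.51% of all genes were called without treated 2 and 9.78% without young 4. For treated against aged limma called none of the 16, where 0.00822% of all genes were called. That is 1 gene, the predicted gene Gm42605, which is no collagen and was picked out with its values in view. Groups that did not overlap were found for Col15a1 alone among the 16, higher in aged than in young livers, where 2.8% of all genes stood so, and higher in treated than in young livers, where 3.14% did. None of the 16 separated treated from aged livers, where 0.403% of all genes stood higher and 0.288% lower in every treated library. At an unadjusted p under 0.05 there was 1 of 16 collagen genes for aged against young, where 8.72% of all genes had one. There were 0 of 16 for treated against aged, where 4.41% did, and 3 of 16 for treated against young, where 17.8% did. The counts called rest on 1 gene, and those at an unadjusted p lie near the share of all genes. The median log2 difference of the 16 was 0.05 for aged minus young, 0.03 for treated minus aged and 0.08 for treated minus young, beside 0.05, -0.00 and 0.06 over all genes tested.

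**Figure D3:**
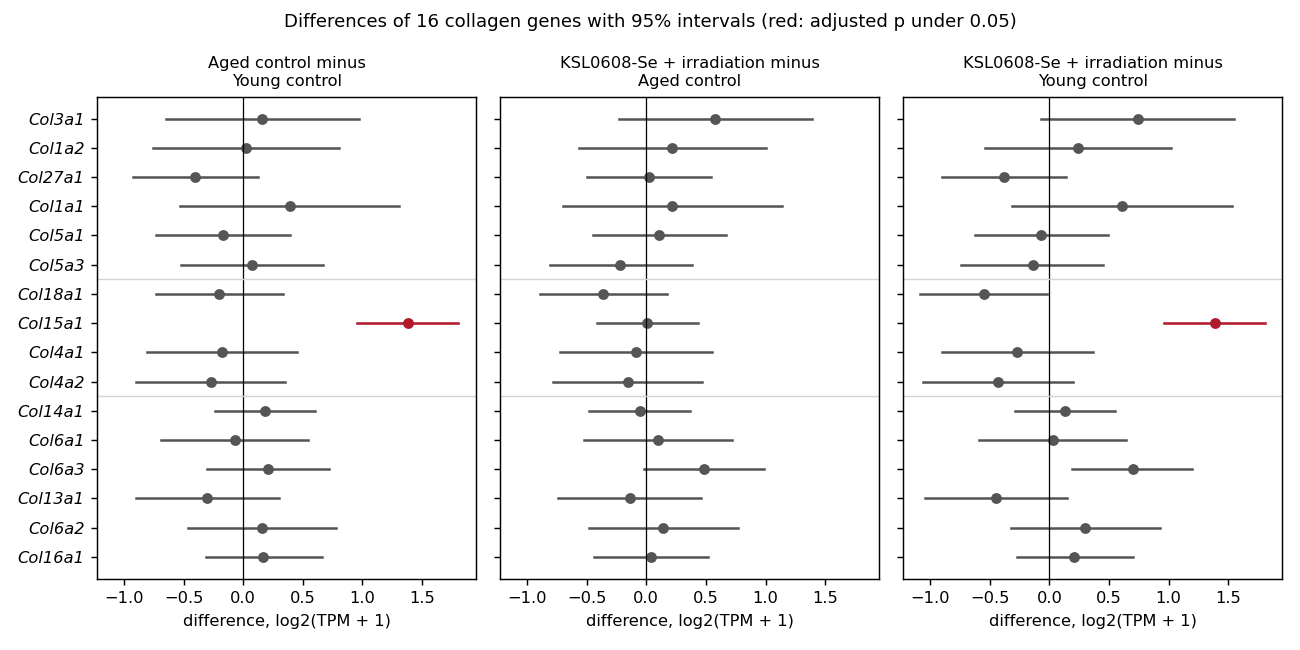
Log2 difference of the 16 tested collagen genes in the 3 comparisons, with 95% intervals from the limma fit; the x axis is the difference in log2(TPM + 1), genes run down the page by class with grey lines between classes, and red marks an adjusted p under 0.05. Col15a1 lies at 1.38 and 1.39 in the comparisons with young livers and at 0.01 between treated and aged livers.

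Col18a1 (ENSMUSG00000001435), the source of endostatin, had 181.82, 171.94, 214.57, 252.23 and 160.94 TPM in treated libraries 1 to 5, 244.54, 191.68, 298.59, 287.75 and 233.07 TPM in aged libraries, and 272.03, 291.71, 401.56, 136.02 and 427.25 TPM in young libraries. Young 4 held the lowest value of all libraries, and the other young libraries lay above every treated library. The means were 196 ± 37.1 TPM in treated, 251 ± 43.3 TPM in aged and 306 ± 116 TPM in young livers (SD, n = 5 each). The log2 difference for treated minus young was -0.55 (SE 0.25, unadjusted p = 0.0423, limma adjusted p = 0.257) and did not pass. Without young 4 it was -0.82 and passed (adjusted p = 0.0152), in a fit that called 5.78% of all genes lower in treated livers, against 0.731% with all libraries. For treated minus aged it was -0.36 (95% interval -0.89 to 0.17) and for aged minus young -0.20 (-0.73 to 0.33). As a share of all collagen TPM, Col18a1 took 62.7% to 75.8% in treated, 69.7% to 80.1% in aged and 77.0% to 86.0% in young libraries, so the treated libraries all lay below the young ones. This share is given as a description with no test.

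Col4a1 and Col4a2 encode the chains of the common collagen IV network. Col4a1 had 5.54, 4.86, 6.90, 8.76 and 8.37 TPM in treated libraries 1 to 5, 7.13, 4.08, 9.68, 7.22 and 9.35 TPM in aged libraries, and 10.68, 8.24, 8.38, 3.20 and 15.49 TPM in young libraries. Col4a2 had 2.80, 2.51, 3.40, 4.72 and 3.61 TPM in treated libraries, 3.10, 2.47, 4.98, 4.31 and 4.86 TPM in aged libraries, and 4.67, 4.61, 5.66, 1.69 and 10.96 TPM in young libraries. Young libraries held both the lowest and the highest value of each gene, in young 4 and young 5. The log2 differences of Col4a1 were -0.18 for aged minus young (95% interval -0.81 to 0.45), -0.09 for treated minus aged (-0.72 to 0.55) and -0.27 for treated minus young (-0.90 to 0.37). Those of Col4a2 were -0.27 (-0.90 to 0.35), -0.15 (-0.78 to 0.47) and -0.43 (-1.06 to 0.20) in that order. The genes lie side by side on opposite strands and overlap in GENCODE M21, and whether reads were counted by strand is not given in the sources used here, so reads of their shared stretch cannot be assigned with certainty. Col15a1 overlaps the antisense gene Gm12426, which was listed at 0 in all libraries.

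The level of Col15a1 relative to Col4a1 also separated the groups. The ratio of their TPM was 1.99, 2.61, 1.80, 1.36 and 1.96 in treated libraries 1 to 5, 1.60, 2.44, 1.31, 2.23 and 1.5 in aged libraries, and 0.502, 0.305, 0.71, 0.988 and 0.340 in young libraries. Col15a1 was thus the more abundant transcript in every treated and aged library and the less abundant one in every young library. Among collagens other than Col18a1, it took 11.8% to 18.9% of TPM in treated, 13.8% to 20.2% in aged and 4.13% to 9.14% in young libraries. These ratios follow from the same values as the test and are not further support for it.

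The remaining basement membrane genes lay under 1 TPM. Col4a5, an X-linked chain of the collagen IV networks of kidney and other specialised basement membranes, had 0.11, 0.12, 0.33, 0.22 and 0.20 TPM in treated libraries 1 to 5, 0.37, 0.15, 0.35, 0.26 and 0.16 TPM in aged libraries, and 0.63, 1.37, 0.54, 0.30 and 0.81 TPM in young libraries. Apart from young 4 at 0.30 TPM, the young libraries lay above all aged and treated ones. With the filter lowered to a mean of 0.1 TPM, its log2 difference was -0.43 for aged minus young (SE 0.13, limma adjusted p = 0.228) and -0.51 for treated minus young (SE 0.13, adjusted p = 0.063). With a pseudocount of 0.1 as well, chosen after seeing the data, the treated minus young difference was -1.41 (adjusted p = 0.0472), in a fit where 0.585% of 17262 genes were called lower in treated livers. Col4a3 and Col4a4 encode partner chains of the same networks and share a promoter region. Treated 1 held 1.63 TPM of Col4a3 and 0.57 TPM of Col4a4, while no other library passed 0.14 TPM of either. Both genes passed the limit of 0.1 TPM through that library, and without it Col4a3 averaged 0.0743 TPM and Col4a4 0.07 TPM over the other 14. Col4a3 overlaps C430014B12Rik on the opposite strand, which lay between 0.33 and 1.77 TPM.

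Of the other collagens, those of type VI form beaded filaments around cells. Col6a3 had 2.82, 4.51, 5.16, 3.57 and 4.28 TPM in treated libraries 1 to 5, 2.67, 3.03, 1.85, 1.87 and 3.83 TPM in aged libraries, and 1.70, 1.69, 2.06, 1.19 and 4.78 TPM in young libraries. Apart from young 5, the young libraries lay below every treated one. The means were 4.07 ± 0.90 TPM in treated, 2.65 ± 0.835 TPM in aged and 2.28 ± 1.43 TPM in young livers (SD, n = 5 each). The log2 difference was 0.70 for treated minus young (SE 0.24, unadjusted p = 0.0102, limma adjusted p = 0.134) and 0.48 for treated minus aged (95% interval -0.02 to 0.99, adjusted p = 0.925), and neither passed. Without young 5 the treated minus young difference was 0.92 and passed (adjusted p = 0.0255), in a fit that called 1.33% of all genes higher in treated livers. Col6a1 and Col6a2, the other common chains, averaged 3.42 ± 1.22 and 2.70 ± 1.09 TPM in treated, 3.08 ± 0.992 and 2.33 ± 0.91 TPM in aged and 3.61 ± 2.53 and 2.22 ± 1.89 TPM in young livers. Their log2 differences lay between -0.07 and 0.30 over the 3 comparisons.

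The collagens that bind to fibre surfaces are known as FACITs. Col14a1, which encodes collagen XIV and is expressed by liver mesenchymal cells, was the second collagen gene by mean. It had 13.43, 14.67, 16, 16.70 and 18.21 TPM in treated libraries 1 to 5, 13.31, 14.08, 19.13, 20.30 and 16.07 TPM in aged libraries, and 16.12, 12.45, 13.34, 9.40 and 23.40 TPM in young libraries. The groups covered much the same range, with log2 differences of 0.18 for aged minus young (95% interval -0.24 to 0.60), -0.05 for treated minus aged (-0.48 to 0.37) and 0.13 for treated minus young (-0.29 to 0.55). Col16a1, a further FACIT gene, averaged 2.02 ± 0.243 TPM in treated, 1.96 ± 0.412 TPM in aged and 1.81 ± 1.38 TPM in young livers. Col12a1, which encodes collagen XII of fibre surfaces, lay under 1 TPM with 0.508 ± 0.301 TPM in treated, 0.248 ± 0.0832 TPM in aged and 0.21 ± 0.0612 TPM in young livers. With the lowered filter its log2 difference was 0.25 for treated minus aged and 0.30 for treated minus young (limma adjusted p = 0.877 and 0.211). For aged minus young it was 0.04. Col20a1 lay between 0.22 and 2.29 TPM over all libraries.

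Col13a1, a collagen that spans the plasma membrane, had 2.13, 1.05, 2.72, 4.15 and 1.12 TPM in treated libraries 1 to 5, 2.44, 1.36, 3.46, 3.71 and 1.51 TPM in aged libraries, and 4.02, 4.43, 3.08, 1.58 and 3.26 TPM in young libraries. The groups overlapped, and the log2 difference was -0.30 for aged minus young (95% interval -0.90 to 0.30) and -0.45 for treated minus young (-1.04 to 0.15). Col23a1, another transmembrane collagen gene, lay between 0.03 and 0.24 TPM over all libraries. No gene of the network-forming and anchoring collagens (types VII, VIII and X) reached a mean of 0.1 TPM.

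**Figure D4:**
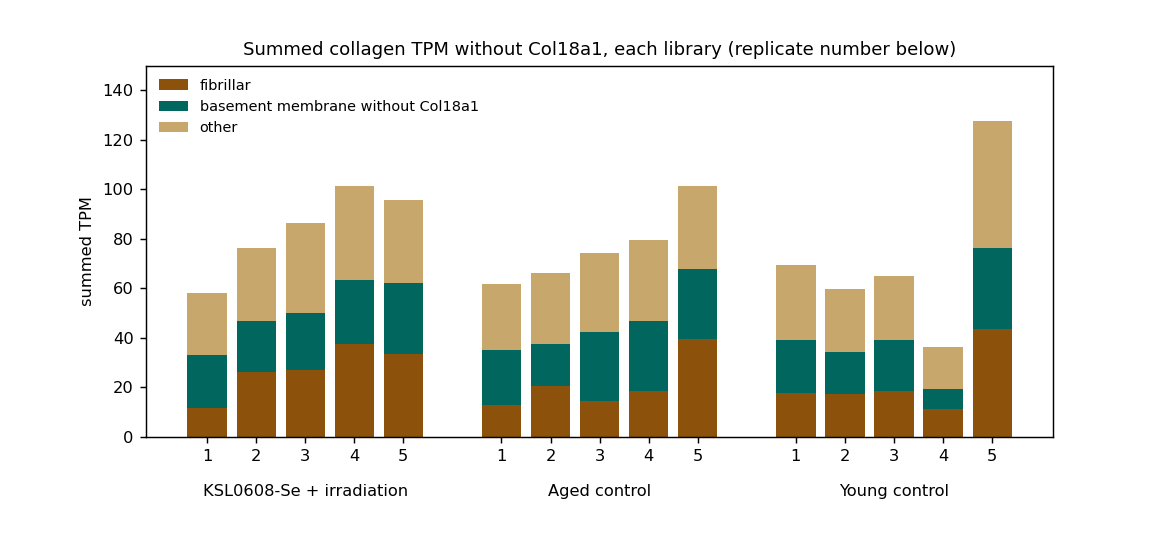
Summed TPM of the collagen genes in each library without Col18a1, stacked by class; bars are libraries, grouped as treated, aged and young, with the replicate number below. The totals run from 58.14 to 101.17 TPM in treated, 61.70 to 101.28 TPM in aged and 36.44 to 127.46 TPM in young libraries, with both extremes in young livers.

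Single libraries moved many collagen genes together. Without Col18a1 the collagens summed to 83.6 ± 17.0 TPM in treated, 76.6 ± 15.4 TPM in aged and 71.6 ± 33.7 TPM in young livers (SD, n = 5 each). Young 5 held the highest value of all 15 libraries in 9 of the 16 tested genes and young 4 the lowest in 12. Within treated livers, treated 1 was the lowest in 11 of 16 and treated 4 the highest in 9, and within aged livers, aged 5 was the highest in 8. The fibrillar sum was 27.1 ± 9.92 TPM in treated, 21.2 ± 10.6 TPM in aged and 21.6 ± 12.6 TPM in young livers, so the group means differed by less than the SD within each group. In a fit that dropped treated 1, aged 5 and young 4, added once the data had been seen, Col15a1 was still called against young livers in both comparisons, and Col18a1 was called lower in treated than in young livers (log2 difference -0.79, limma adjusted p = 0.0226), in a fit that called 4.07% of all genes lower in treated livers.

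Several pairs of collagen genes varied together from library to library, among them pairs whose chains join in a single protein. Across the 15 libraries, with each group's mean subtracted on the log2(TPM + 1) scale, Pearson's r was 0.98 and Spearman's rho 0.97 for Col1a1 and Col1a2, with an adjusted p of 9e-05 for each. Libraries were permuted within groups 100000 times in a two-sided permutation test, and p-values were adjusted over 9 pairs and both measures. For Col1a1 and Col3a1, which encode chains of different fibrillar proteins, r was 0.96 and rho 0.94 (adjusted p = 0.000112 and 0.000108). For Col4a1 and Col4a2, r was 0.94 and rho 0.93 (adjusted p = 0.000112 and 9e-05), and for Col6a1 and Col6a2, r was 0.97 and rho 0.96 (adjusted p = 9e-05 and 0.000112). The unadjusted p of 1e-05 for r of Col6a1 and Col6a2 is the smallest the permutations can give. Without the 2 libraries farthest from the median of the first gene, r of these pairs was 0.96, 0.95, 0.85 and 0.96. The part that the shared stretch of Col4a1 and Col4a2 has in their correlation was not tested.

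The other 5 pairs, 2 within the basement membrane class and 3 between classes, had lower values. Within the class, Col18a1 and Col4a1 had r = 0.80 and rho = 0.68 (adjusted p = 0.0147 and 0.0197), but r was 0.46 without young 4 and young 5, and rho did not pass in 7 of the 15 fits that left out 1 library (treated 1, 2 or 4, aged 2 or 3, young 4 or 5), with values of 0.52 to 0.61 there. Without young 4 alone, r was 0.55 and did not pass (adjusted p = 0.111 in the permutation test). Whether rho passed depended on the library left out, while its values stayed between 0.52 and 0.79. Col15a1 and Col4a1 had r = 0.55 and rho = 0.55 (adjusted p = 0.129 and 0.0926). Between classes, Col1a1 and Col4a1 had r = 0.56 and rho = 0.51 (adjusted p = 0.0926 and 0.107), and both measures passed without aged 2 (0.66 and 0.67, adjusted p = 0.0465 and 0.0322) and without aged 3 (0.65 and 0.63, adjusted p = 0.0495 for both). Col15a1 and Col1a1 had r = 0.31 and rho = 0.29 (adjusted p = 0.366 for both), and Col18a1 and Col1a1 r = 0.32 and rho = 0.23 (adjusted p = 0.366 and 0.434). Without the 2 libraries farthest from the median of the first gene, r was 0.73 for Col15a1 and Col4a1, 0.32 for Col1a1 and Col4a1, 0.45 for Col15a1 and Col1a1, and -0.10 for Col18a1 and Col1a1. Pairs within and across classes were not compared with each other by a test.

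**Figure D5:**
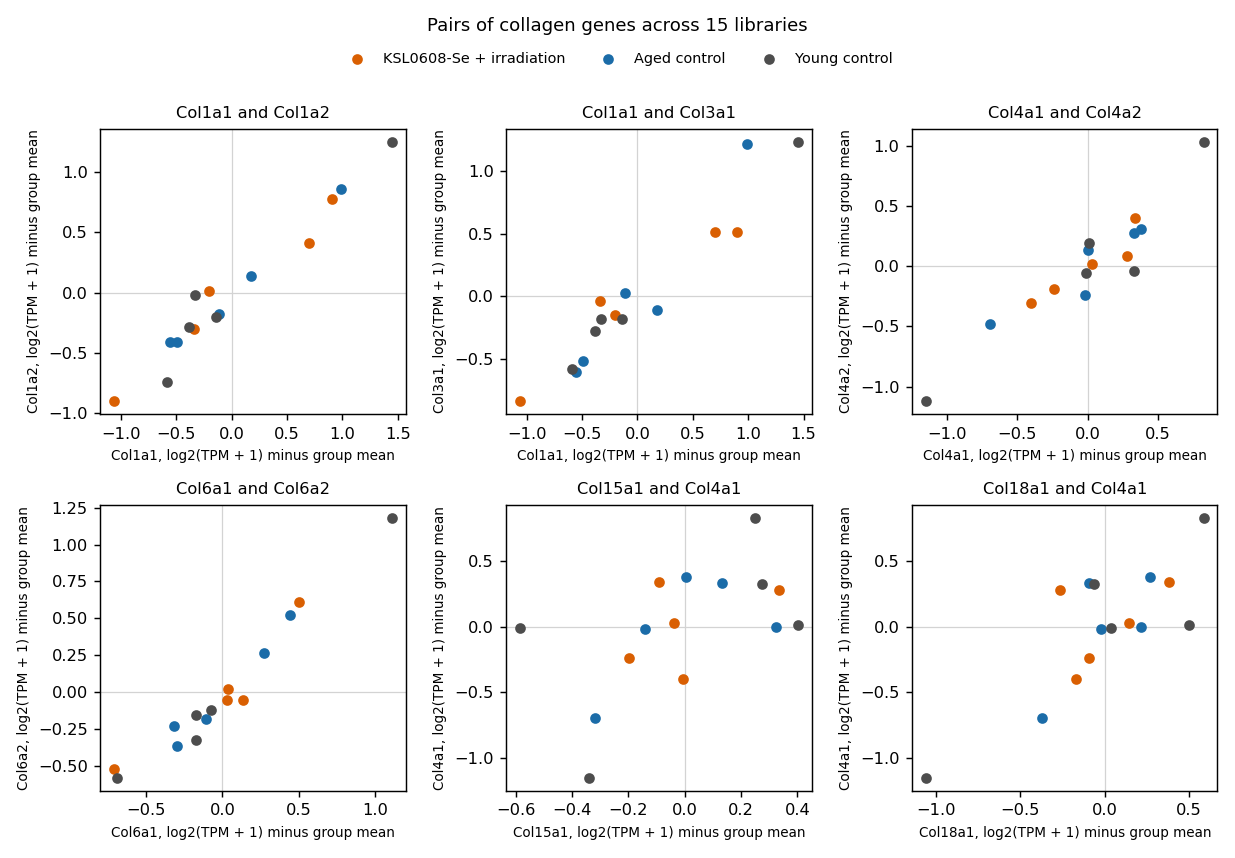
Level of 1 collagen gene against another in 15 libraries, both as log2(TPM + 1) minus the mean of the library's group; points are libraries, coloured by group. The pairs of chains of a single protein and the pair of Col1a1 and Col3a1 lie close to a line (r from 0.94 to 0.98), and in the panel of Col18a1 and Col4a1 young 4 and young 5 lie at opposite ends (r = 0.80, and 0.46 without them).

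The balance of chains within a protein was also read per library, as a description with no test. Col1a2 exceeded Col1a1 in every library, with a ratio of 1.04 to 1.95 in treated, 1.18 to 1.75 in aged and 1.5 to 3.13 in young libraries. Col6a1 exceeded Col6a2 likewise, by 1.09 to 1.51 in treated, 1.21 to 1.49 in aged and 1.44 to 2.07 in young libraries. Col4a1 exceeded Col4a2 by 1.86 to 2.32 in treated, 1.65 to 2.30 in aged and 1.41 to 2.29 in young libraries. For collagen I and for collagen VI, each young library other than young 5 had a higher ratio than all treated and aged libraries.

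The genes that make, bind, cut and surround collagens were read from fixed lists, and limma called none of their tested members in any of the 3 comparisons. Some passed for treated against young when a single library was left out. Those named next also passed with library weights on all libraries, in a fit that called 1538 genes, against 354 in the main fit. Ctsb, Pxdn and Lamb3 passed with quantile normalization as well, which called 574. Ctsb, Pdgfb and Lair1 were called higher without treated 1, where 4.33% of all genes were called higher in treated livers. Pxdn and Lamb3 were called lower without young 4, where 5.78% of all genes were called lower. Bgn and Pcolce were called higher without young 5, where 1.33% of all genes were. Of 32 genes of collagen biosynthesis and processing 20 were tested, with a median log2 difference of 0.03 for aged minus young, 0.08 for treated minus aged and 0.11 for treated minus young. At an unadjusted p under 0.05 there were 1, 0 and 4 of them, beside 8.72%, 4.41% and 17.8% of all genes. Ppib, a prolyl isomerase that folds collagen chains, stood at 293 ± 52.0 TPM in aged and 369 ± 24.7 TPM in young livers (log2 difference -0.35, limma adjusted p = 0.529). Pxdn, the peroxidase that cross-links collagen IV, stood at 2.01 ± 0.606 TPM in aged and 3.13 ± 1.09 TPM in young livers (log2 difference -0.43, adjusted p = 0.608). Pcolce, which enhances the trimming of fibrillar procollagen, stood at 11.9 ± 2.04 TPM in treated, 10.3 ± 1.49 TPM in aged and 8.55 ± 4.32 TPM in young livers.

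Of 10 collagen receptor genes 3 were tested, the integrin genes Itga1 and Itgb1 and Lair1, an inhibitory collagen receptor of leukocytes. Lair1 stood at 5.72 ± 3.38 TPM in treated, 3.57 ± 0.745 TPM in aged and 2.21 ± 0.82 TPM in young livers, with a log2 difference of 0.93 for treated minus young (limma adjusted p = 0.132), and without treated 1 it was 1.26 and passed (adjusted p = 0.00961). Itga1 and Itgb1 differed by -0.13 and -0.09 for aged minus young. Of 14 genes of collagen degradation 10 were tested, with medians of 0.21, -0.02 and 0.16 for aged minus young, treated minus aged and treated minus young. At an unadjusted p under 0.05 there were 2, 0 and 3 of the 10, beside 8.72%, 4.41% and 17.8% of all genes. Among the 10, Ctsb, a lysosomal protease gene, stood at 410 ± 41.6 TPM in aged and 303 ± 61.8 TPM in young livers (log2 difference 0.45, adjusted p = 0.447). Timp2 and Timp3, which encode inhibitors of matrix proteases, differed by 0.51 and 0.66 (adjusted p = 0.484 and 0.595).

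Col15a1 and Col18a1 sit beside laminins and other proteoglycans in basement membranes. Of 16 such partner genes 12 were tested, with medians of -0.12, -0.03 and -0.17 for aged minus young, treated minus aged and treated minus young. At an unadjusted p under 0.05 there were 0, 0 and 1 of the 12, beside 8.72%, 4.41% and 17.8% of all genes. Lama4, the laminin chain of vessel walls, stood at 2.28 ± 0.76 TPM in aged and 1.53 ± 0.33 TPM in young livers (log2 difference 0.35, limma adjusted p = 0.702). The laminin gene Lamb3 and the proteoglycan gene Agrn differed by -0.39 and -0.23. Of 15 partners in the interstitial matrix 9 were tested, with medians of -0.06, 0.19 and 0.17. At an unadjusted p under 0.05 there were 2, 1 and 3 of the 9, beside the same shares of all genes. Bgn, a small proteoglycan that binds collagen fibres, stood at 95.4 ± 16.3 TPM in treated, 101 ± 15.8 TPM in aged and 65.0 ± 26.9 TPM in young livers. Its log2 difference was 0.70 for aged minus young (SE 0.22, adjusted p = 0.192), and without young 5 it was 0.91 and passed (adjusted p = 0.0178), in a fit that called 0.707% of all genes higher in aged livers. With library weights it was 0.67 and passed (limma adjusted p = 0.0385), in a fit that called 244 genes, against 132 in the main fit. Postn, a matrix protein of injured tissue, differed by -0.75 for aged minus young (adjusted p = 0.549), and Dpt, which binds collagen fibres, by 0.62 (adjusted p = 0.632).

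Of 15 genes of TGF-beta and profibrotic signalling, the main inducer of collagen I in liver, 12 were tested, with medians of 0.11, -0.03 and 0.05 for aged minus young, treated minus aged and treated minus young. At an unadjusted p under 0.05 there were 0, 0 and 1 of the 12, beside 8.72%, 4.41% and 17.8% of all genes. The ligand gene Tgfb1 stood at 13.6 ± 4.39 TPM in treated, 13.9 ± 6.63 TPM in aged and 10.1 ± 4.57 TPM in young livers. Smad7, a feedback inhibitor of the pathway, and Pdgfb, a mitogen of stellate cells, differed by 0.44 and 0.36 for aged minus young (limma adjusted p = 0.726 and 0.799).

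Markers of the cells that make collagens were read in the same libraries. The summed level of 10 stellate cell markers was 79.1 to 92.2 TPM in treated, 74.5 to 103.3 TPM in aged and 59.0 to 117.4 TPM in young libraries, most of it from Colec11 and Reln, and none of the 10 was called. Of the 10, 4 had a higher mean log2 level in aged than in young livers and 4 in treated livers. For aged minus young, Des differed by 0.88 and Hand2 by -0.55 (limma adjusted p = 0.181 and 0.245). Hand2 had 1.99 to 2.98 TPM in treated and 3.54 to 6.76 TPM in young libraries (log2 difference -0.69, adjusted p = 0.0516). These 2 groups did not overlap, where 0.953% of all genes stood lower in treated livers so. For 10 markers of portal fibroblasts and fibroblasts it was 49.3 to 226 TPM in treated, 72.4 to 141 TPM in aged and 46.0 to 109 TPM in young libraries, most of it from Gas6. Of these 10, 7 were tested and none was called, while Gli1, which was not tested, stayed at 0.13 TPM or less. The mean log2 level was higher in aged than in young livers for 6 of the 7 tested and in treated livers for all 7. Their median log2 difference was 0.62 for aged minus young, -0.02 for treated minus aged and 0.66 for treated minus young. Cd34, a marker of fibroblasts that endothelium also expresses, had 1.48 to 3.66 TPM in treated, 1.79 to 2.89 TPM in aged and 0.69 to 1.28 TPM in young libraries, so its groups separated as those of Col15a1 did. Of all genes, 2.8% separated so for aged against young and 3.14% for treated against young. The log2 difference of Cd34 was 0.72 for aged minus young (limma adjusted p = 0.0729) and 0.66 for treated minus young (adjusted p = 0.0605). The part of fibroblast numbers in the Col15a1 difference was not tested.

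The sums of endothelial markers overlapped between the groups. The sum of 8 sinusoidal markers was 135 to 276 TPM in treated, 107 to 246 TPM in aged and 80.8 to 220 TPM in young libraries, and that of 6 vascular markers 96.1 to 120, 77.1 to 116 and 61.9 to 138 TPM. Young 4 was the lowest library in both sums. The sum of 5 leukocyte markers was 14.8 to 65.1 TPM in treated, 18.4 to 100 TPM in aged and 3.54 to 21.4 TPM in young libraries, and none of the 5 was called. All 5 had a higher mean log2 level in aged and in treated than in young livers, with median log2 differences of 0.96 for aged minus young, 0.27 for treated minus aged and 1.26 for treated minus young. At an unadjusted p under 0.05 there were 2, 0 and 2 of the 5, beside 8.72%, 4.41% and 17.8% of all genes. The part of leukocyte numbers in the Col15a1 difference was not tested. Of 6 hepatocyte markers, Cyp2e1, a cytochrome P450 of pericentral hepatocytes, was called lower in treated than in young livers (log2 difference -1.32, limma adjusted p = 0.00976), and none was called in the other comparisons. All 6 had a lower mean log2 level in aged and in treated than in young livers. Their median log2 differences were -0.25 for aged minus young, -0.13 for treated minus aged and -0.42 for treated minus young. At an unadjusted p under 0.05 there were 2, 0 and 3 of the 6, beside the same shares of all genes. The part of hepatocyte content in the Col15a1 difference was not tested. Markers of myofibroblasts and smooth muscle summed to 8.32 to 25.9 TPM in treated, 8.97 to 21.02 TPM in aged and 6.28 to 21.7 TPM in young libraries. Those of bile duct cells, mesothelium and adipocytes reached at most 10.5, 3.49 and 7.20 TPM in any library, and none of their tested members was called.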

How the data were processed

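RNA was measured by RNA sequencing in 15 libraries of mouse liver, 5 per group. Total RNA was extracted with TRIzol and treated with DNase, per the labels' protocols. Per the submitters' processing notes the authors used fastp, HISAT and RSEM with GRCm39; versions, settings and strandedness are not given in the sources used here. The deposited values are TPM, rounded by the authors to 2 decimals and scaled for gene length. Each library sums to 999999 to 1000001, and neither counting intervals nor detection floors can be given. TPM is relative, so a change in a few abundant genes shifts all others. The 3 columns of group means were not used.

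The 12168 genes averaging 1 TPM or more were analysed as log2(TPM + 1), all 3 groups in a single model in limma 3.58.1 (R 4.3.3; eBayes with trend and robust), with Benjamini-Hochberg adjustment over all these genes and calls at an adjusted p under 0.05. The procedure was tested on simulated data. Promoter windows came from RefSeq (GRCm38.p6) and gene overlaps from GENCODE M21 (GRCm38); no coordinates were converted. Every collagen gene of at least 0.1 TPM is named, and of each pathway list every called member and the 3 with the smallest p for aged against young. Members and lists were chosen with earlier results of these data known. All 206 list symbols were in the table. Replicate numbers were checked for pairing: across 15 same-numbered pairs of libraries the deviations from group means correlated at -0.249 to 0.309 (median 0.0215, 4 of 15 over 0.1). Across 60 differently numbered pairs they correlated at -0.363 to 0.304 (median -0.0189, 12 of 60 over 0.1). No clear pairing by number was seen, and the check cannot exclude a weak one. Alternatives changed the pseudocount (0.1, 0.5, 5), the filter (0.1, 5, none), the scaling, library weights, the groups fitted and the libraries included.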

Additional observations from a re-analysis of the deposited data

Results flagged for a closer look

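In 8 of the 72 combinations of the 24 collagen genes with the 3 groups, 1 library stood far from the other 4 of its group, by Dixon's test on log2(TPM + 1) (gap over range above 0.71). Chance flags about 1 in 20 groups. In young livers, young 5 stood high in Col1a1 at 5.56 TPM (others 0.60 to 1.18), in Col3a1 at 17.31 TPM (4.18 to 5.86), in Col6a2 at 5.57 TPM (0.94 to 1.67) and in Col16a1 at 4.24 TPM (0.97 to 1.58). In treated livers, treated 1 stood low in Col5a1 at 1.38 TPM (others 2.46 to 2.88) and high in Col4a3 at 1.63 TPM (0.04 to 0.11) and Col4a4 at 0.57 TPM (0.04 to 0.14). In aged livers, aged 1 stood low in Col5a3 at 1.13 TPM (others 1.75 to 1.91). The pattern in young 5 covers chains of collagen I, III, VI and XVI, and its cause was not tested. Col15a1 had no such library in any group.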

How the results depend on the processing

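Col15a1 was called in all 28 alternatives for aged against young (log2 difference 0.92 to 1.56, limma adjusted p 0.000384 to 0.00821) and for treated against young (0.93 to 1.57, adjusted p 0.000335 to 0.00627), and in none for treated against aged (-0.07 to 0.09). No other collagen gene was called for aged against young or treated against aged. For treated against young, the count of 1 collagen gene became 3 with library weights (Col15a1, Col6a3 at 0.83 and Col18a1 at -0.68), 2 without young 4, aged 5 and treated 1 (with Col18a1), 2 with a filter of 0.1 and a pseudocount of 0.1 (with Col4a5), and 1 to 2 with each library left out. Over all genes, the 132 calls for aged against young became 76 with a filter of 5 TPM, 244 with library weights, 213 with a filter and pseudocount of 0.1, and 79 (without young 3) to 165 with each library left out. For treated against aged, 1 became 0 with a filter of 5 TPM (280 genes with an unadjusted p under 0.05) and 1 to 2 with each library left out. For treated against young, 354 became 217 with a filter of 5 TPM, 188 with none, 574 with quantile normalization, 598 with median-ratio scaling, 1538 with library weights, 1458 without the 3 libraries, and 183 (without treated 2) to 1192 (without young 4). The share of calls higher in the first group was 85.6% for aged against young, 65.5% with quantile normalization and 74.4% with median-ratio scaling, and for treated against young 74.9%, 43.9% and 59.5%, and 40.9% without young 4 (488 higher and 704 lower). Quantile normalization also put the median of all genes for treated minus young at -0.07 in place of 0.06, and Col15a1 at 1.27. With the replicate number as a block, 116, 1 and 373 genes and 1, 0 and 1 collagen genes were called, taking aged against young first, then treated against aged, then treated against young. No clear pairing by number was seen, and 8 of 30 best matches fell on a library's own number. With each library left out, r ranged from 0.55 to 0.86 and rho from 0.52 to 0.79 for Col18a1 and Col4a1 (r did not pass without young 4, and rho not in 7 of 15 fits), r from 0.36 to 0.66 and rho from 0.38 to 0.67 for Col1a1 and Col4a1 (both passed without aged 2 or aged 3), and rho from -0.02 to 0.35 for Col18a1 and Col1a1. The causes were not tested. TPM keeps no depth, so the precision of genes under 1 TPM is unknown.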
